A study of Mus musculus with 24 samples.

Results

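The nuclear factor I (NFI) family of the mouse has 4 genes, Nfia, Nfib, Nfic and Nfix, and all of them were measured here. They were chosen as the probe sets whose gene symbol in the array's companion table is one of these names. This gave 6 probe sets of the 28350 on the array, or 4 genes of the 21072 with a probe set of a single symbol. Gene expression was measured on Affymetrix arrays in cultures of neural stem cells from the subventricular zone, the niche beside the lateral ventricle that makes olfactory neurons and glia after birth. The study followed such cultures from 3 mice labelled Mll1-deleted (489, 814 and 858) and 3 wild-type mice (818, 862 and 870), called Mll1-deleted and wild-type below after their labels. The product of Mll1, a gene now called Kmt2a, methylates lysine 4 of histone H3. Every mouse contributed an array on days 0, 1, 2 and 4, so there are 8 groups of 3 arrays.

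On day 0 all cultures were in the growth medium, which held 5% fetal bovine serum, 20 ng/ml epidermal growth factor, 20 ng/ml fibroblast growth factor, N2 supplement and pituitary extract. On the later days they had been moved, after 5 to 7 passages, to a medium that kept the N2 supplement and the extract but held neither serum nor added growth factors. The labels give neither the allele, the Cre line, the sex nor the age of the mice. They call the RNA total RNA in one field and polyadenylated RNA in another.

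NFI proteins, also called CTF or CCAAT-box transcription factors, bind DNA as dimers. Their full site is a palindrome, the arm TTGGC and its reverse complement GCCAA with 5 bases of any kind between them, and they can also bind a single arm. In the developing mouse brain Nfia and Nfib are known for starting gliogenesis and for forming forebrain tracts, and Nfix for controlling neural stem cells after birth. Nfic is best known outside the brain, for forming tooth roots.

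Kmt2a itself was not lower in the cultures labelled Mll1-deleted. On day 0 its intensity was 481.4 to 580 in Mll1-deleted cultures and 326.5 to 427.9 in wild-type cultures (log2 difference 0.48 ± 0.13 SE, limma with Benjamini-Hochberg, adjusted p = 0.0176). On days 1, 2 and 4 the differences of Kmt2a were 0.31, 0.09 and 0.36, and limma called none. The labels do not say which exons are removed, so this probe set does not check the deletion. Array medians lay between 75.6 and 87.1, and arrays of a group correlated with r from 0.984 to 0.996 across genes. All 10 neural stem cell markers, among them Nes, Sox2 and Pax6, had mean intensities above 25.78, the mean lower quartile of the arrays, in every group. Their summed intensity on day 0 was 21110 to 22690 in Mll1-deleted and 21060 to 22660 in wild-type cultures. The brightest markers weigh most in such a sum. Of the 10 markers, limma called 1 higher and 4 lower in Mll1-deleted cultures that day, where 10.1% of all genes were called.

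The start regions of 3 members are shown because they hold, or lack, the binding letters of the family itself. RefSeq windows of 300 bases (250 before and 50 after an annotated start, build GRCm38.p6) were matched by symbol, which gave 1 window for Nfia, 1 for Nfic and 4 for Nfix. Capitals mark, on either strand, the NFI arm TTGGC (its reverse complement is GCCAA) and the letters ACAAAG that SOX factors bind.
Nfia, chr4:97581693-97581992, plus strand: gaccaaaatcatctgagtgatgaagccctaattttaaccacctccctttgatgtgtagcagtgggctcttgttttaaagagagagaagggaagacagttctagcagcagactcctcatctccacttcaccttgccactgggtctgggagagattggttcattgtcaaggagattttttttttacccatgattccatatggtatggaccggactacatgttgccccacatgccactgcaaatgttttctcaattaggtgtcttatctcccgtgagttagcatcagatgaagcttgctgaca
Nfix, chr8:84780033-84780332, minus strand: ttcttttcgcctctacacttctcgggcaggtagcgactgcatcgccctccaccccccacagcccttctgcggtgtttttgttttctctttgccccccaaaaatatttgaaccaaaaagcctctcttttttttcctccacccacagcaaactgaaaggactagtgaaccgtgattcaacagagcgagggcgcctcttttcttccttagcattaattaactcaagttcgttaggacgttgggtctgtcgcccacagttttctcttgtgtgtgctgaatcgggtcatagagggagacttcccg
Nfix, chr8:84775779-84776078, minus strand: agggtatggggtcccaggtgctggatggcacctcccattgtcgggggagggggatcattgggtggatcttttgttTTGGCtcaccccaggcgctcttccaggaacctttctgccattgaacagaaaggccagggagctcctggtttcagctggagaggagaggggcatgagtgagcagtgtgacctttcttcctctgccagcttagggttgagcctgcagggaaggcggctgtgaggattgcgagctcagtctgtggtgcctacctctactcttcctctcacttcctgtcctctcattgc
Nfix, chr8:84773361-84773660, minus strand: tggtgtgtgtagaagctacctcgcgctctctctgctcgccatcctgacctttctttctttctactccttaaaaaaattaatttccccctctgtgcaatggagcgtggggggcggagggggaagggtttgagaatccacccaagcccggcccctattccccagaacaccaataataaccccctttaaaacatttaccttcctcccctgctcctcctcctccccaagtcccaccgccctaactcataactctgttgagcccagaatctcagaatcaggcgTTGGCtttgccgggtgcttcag
Nfix, chr8:84772826-84773125, minus strand: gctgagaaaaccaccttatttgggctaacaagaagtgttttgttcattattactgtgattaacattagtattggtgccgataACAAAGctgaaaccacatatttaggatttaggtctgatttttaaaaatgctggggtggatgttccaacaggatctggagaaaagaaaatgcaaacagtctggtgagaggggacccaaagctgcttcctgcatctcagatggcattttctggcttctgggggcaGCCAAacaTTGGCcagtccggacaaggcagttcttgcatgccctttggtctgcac
Nfic, chr10:81427124-81427423, minus strand: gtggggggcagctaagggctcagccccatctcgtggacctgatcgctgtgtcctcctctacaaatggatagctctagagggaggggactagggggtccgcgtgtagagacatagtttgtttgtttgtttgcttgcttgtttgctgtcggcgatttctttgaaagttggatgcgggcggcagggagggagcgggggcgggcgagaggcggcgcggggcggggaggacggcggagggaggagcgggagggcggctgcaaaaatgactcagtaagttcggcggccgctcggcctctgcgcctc

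The full NFI palindrome was in 0 of the 6 windows of the family, and in 12 of all 32851 windows (0.0365%). The arm, which lies inside every full site, was in 3 of the 6 windows, each of them one of Nfix, and in 46.7% of all windows. The window of Nfix that starts at 84772826 held the arm on both strands, at -5 and 4 relative to its annotated start, 3 bases apart and facing outwards. It also held the SOX letters, as 18.7% of all windows did. Neither the octamer ATGCAAAT of POU factors (1.74% of all windows) nor the letters GTGGGAA of RBPJ (6.38%) was in any of the 6. The windows also differed in base composition. That of Nfic had 63% G and C and 24 CpG dinucleotides, above the upper quartile of all windows (61.7% and 20), whereas that of Nfia had 44.7% and 2, below the lower quartile (45.7% and 3).

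Nfia and Nfix rose within a day of the change of medium in both genotypes and were high on days 1 and 2. Nfib and Nfic did not pass the test on either day, and they ended day 4 below day 0. All members fell between day 2 and day 4 in both genotypes. Between the genotypes, Nfia and Nfib were lower in Mll1-deleted cultures on some of the days, and Nfic and Nfix passed the test on none. Values are linear intensities, differences are log2 differences with their SE, and every adjusted p is from limma with Benjamini-Hochberg adjustment over the 21072 genes. A gene is called at an adjusted p under 0.05. The p-values of single days and of changes rest on the spread between arrays within groups, each array of a group being from a different mouse. The tests over time left out the pairing of arrays by mouse. Having 3 mice in a group limits the precision.

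**Figure D1:**
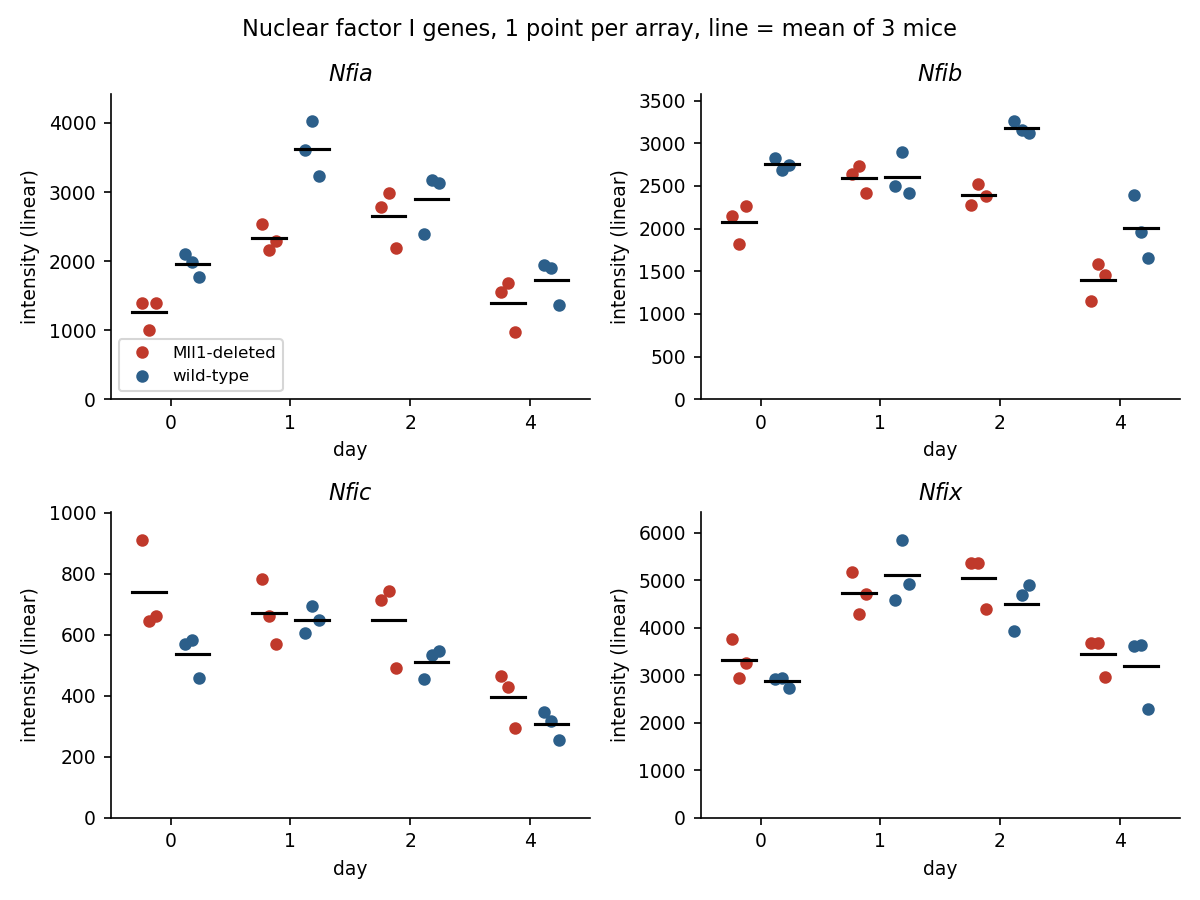
Linear intensity of Nfia, Nfib, Nfic and Nfix (vertical axes, starting at 0) on days 0, 1, 2 and 4 (horizontal axes). Each point is 1 array, Mll1-deleted in red on the left and wild-type in blue on the right of each day, and black lines are means of 3 mice. Nfia and Nfix are highest on days 1 and 2, and Nfic is lowest on day 4.

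Nfia was measured by probe set 10506031, and values are given in the order of the mice above. In Mll1-deleted cultures its intensity was 1394, 1003 and 1388 on day 0 and 2540, 2168 and 2297 on day 1, then 2786, 2979 and 2186 on day 2, and at the end, day 4, 1555, 1679 and 967.5. In wild-type cultures it was 2104, 1988 and 1768 on day 0 and 3606, 4023 and 3238 on day 1, then 2388, 3169 and 3130 on day 2, and at the end, day 4, 1940, 1901 and 1360. Days 1 and 2 lay above day 0 without overlap in either genotype, and day 4 overlapped day 0 in both. Nfia was higher on day 1 than on day 0 by 0.90 ± 0.19 in Mll1-deleted cultures (adjusted p = 0.00243) and by 0.89 ± 0.19 in wild-type cultures (adjusted p = 0.0011). This is 1.87-fold in Mll1-deleted and 1.85-fold in wild-type cultures. On day 2 it was higher than on day 0 by 1.08 ± 0.19 in Mll1-deleted cultures (adjusted p = 0.000252), and by 0.56 ± 0.19 in wild-type cultures (adjusted p = 0.025). The wild-type rise by day 2 rested on mice 862 and 870, with adjusted p = 0.143 without 862 and 0.196 without 870, and it was lost when arrays were shifted to the same median (0.42, adjusted p = 0.115). On day 4 the difference from day 0 was 0.13 ± 0.19 in Mll1-deleted and -0.19 ± 0.19 in wild-type cultures, and neither passed the test.

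Nfix, on probe set 10580191, was also highest on days 1 and 2. Its intensity in Mll1-deleted cultures was 3759, 2938 and 3255 on day 0 and 5179, 4283 and 4719 on day 1, then 5364, 5354 and 4403 on day 2, and at the end, day 4, 3686, 3683 and 2961. In wild-type cultures it was 2925, 2945 and 2741 on day 0 and 4578, 5851 and 4921 on day 1, then 3931, 4693 and 4892 on day 2, and at the end, day 4, 3619, 3646 and 2299. Days 1 and 2 again lay above day 0 without overlap in both genotypes, and day 4 overlapped day 0 in both. The rise by day 1 was 0.51 ± 0.16 in Mll1-deleted cultures (adjusted p = 0.0325) and 0.83 ± 0.16 in wild-type cultures (adjusted p = 0.00036). By day 2 it was 0.60 ± 0.16 in Mll1-deleted cultures (adjusted p = 0.00656) and 0.64 ± 0.16 in wild-type cultures (adjusted p = 0.00244). All 6 mice showed the rise on both days. The Mll1-deleted call on day 1 was lost without mouse 489, 814 or 858 (adjusted p = 0.141, 0.142 and 0.122), with arrays shifted to the same median (0.48, adjusted p = 0.0599) and in a fit of those 6 arrays alone (adjusted p = 0.085). That on day 2 was lost without mouse 814 (0.47, adjusted p = 0.126).

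Nfib, on probe set 10514054, moved less before day 4. In Mll1-deleted cultures it read 2144, 1819 and 2266 on day 0 and 2641, 2732 and 2416 on day 1, then 2280, 2520 and 2381 on day 2, and at the end, day 4, 1156, 1586 and 1457. In wild-type cultures it read 2827, 2688 and 2746 on day 0 and 2504, 2895 and 2419 on day 1, then 3258, 3156 and 3119 on day 2, and at the end, day 4, 2394, 1955 and 1661. Day 4 was below day 0 in every mouse. The changes by day 1 were 0.33 ± 0.13 in Mll1-deleted cultures (adjusted p = 0.108) and -0.08 ± 0.13 in wild-type cultures (adjusted p = 0.716). By day 2 they were 0.21 ± 0.13 in both, and neither passed the test. When arrays were quantile normalised again, the day 1 change in Mll1-deleted cultures (0.41, adjusted p = 0.0281) and the day 2 change in wild-type cultures (0.42, adjusted p = 0.0103) were called. Against day 0, day 4 differed by -0.58 ± 0.13 in Mll1-deleted cultures (adjusted p = 0.00147) and by -0.47 ± 0.13 in wild-type cultures (adjusted p = 0.00494). The Mll1-deleted fall was not called without mouse 489 (-0.42, adjusted p = 0.0685). The wild-type fall was not called without mouse 870 (-0.35, adjusted p = 0.101) or after the second quantile normalisation (-0.24, adjusted p = 0.144).

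Nfic, on probe set 10371176, did not pass the test against day 0 on days 1 and 2 and then fell. In wild-type cultures it was higher on day 1 than on day 0 in 3 of 3 mice, without overlap (0.28 ± 0.19). Its intensity in Mll1-deleted cultures was 910.7, 644.3 and 660.8 on day 0 and 782.7, 661.7 and 569 on day 1, then 714.6, 742.8 and 490.3 on day 2, and at the end, day 4, 463, 428.2 and 294.7. In wild-type cultures it was 570.9, 583.3 and 456.4 on day 0 and 606.2, 692.5 and 648.9 on day 1, then 454.9, 535 and 545.4 on day 2, and at the end, day 4, 347.2, 317.3 and 256.5. Day 4 lay below each earlier day without overlap in both genotypes. Against day 0, day 4 differed by -0.91 ± 0.19 in Mll1-deleted cultures (adjusted p = 0.00063) and by -0.81 ± 0.19 in wild-type cultures (adjusted p = 0.00123). These calls held under every alternative run. Neither day 1 nor day 2 was called against day 0, with differences between -0.19 and 0.28.

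Over the family, 2 of 4 members were called higher on day 1 than on day 0 in each genotype, where 5.87% of all genes were called higher in Mll1-deleted and 11.7% in wild-type cultures. The same 2 were called higher on day 2, against 9.41% of all genes in Mll1-deleted and 15.6% in wild-type cultures. On day 4, 2 of 4 were called lower than on day 0, Nfib and Nfic, against 15.7% of all genes in Mll1-deleted and 20.4% in wild-type cultures. Values of 3 of 4 members did not overlap day 0 on day 1 in each genotype, where 22.7% of all genes did not in Mll1-deleted and 40.1% in wild-type cultures. Beside Nfia and Nfix, this was Nfib in Mll1-deleted and Nfic in wild-type cultures. On day 2, 3 of 4 members again did not overlap day 0 (39.1% of all genes in Mll1-deleted, 48.1% in wild-type cultures). On day 4 this held for 2 of 4 (43.6% in Mll1-deleted, 47.5% in wild-type cultures), so a lack of overlap was itself common. From day 1 to day 2 limma called 0 of 4 members in either genotype, where it called 0.389% of all genes in Mll1-deleted and 4.96% in wild-type cultures. At an unadjusted p under 0.05 it found 0 members in Mll1-deleted cultures and 1 in wild-type cultures, Nfib, which was higher on day 2 than on day 1 by 0.29 ± 0.13. Days 2 and 1 did not overlap in 0 of 4 members in Mll1-deleted cultures (16.2% of all genes) and in 3 of 4 in wild-type cultures (24.9%), where Nfia and Nfic were below their day 1 values.

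**Figure D2:**
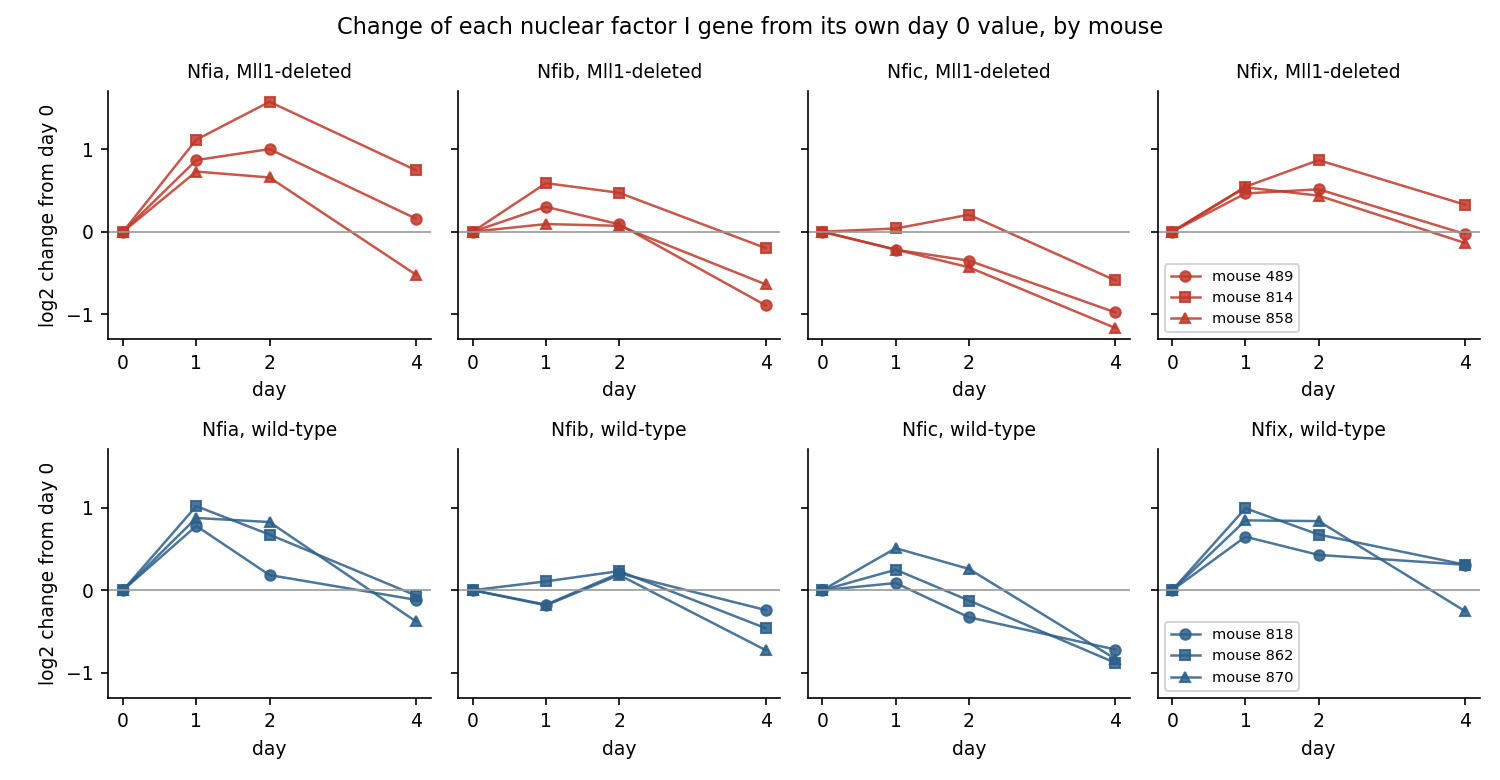
Log2 change of each member from the day 0 value of its own mouse (vertical axis) over days 0, 1, 2 and 4 (horizontal axis), 1 line per mouse, Mll1-deleted mice in the upper row and wild-type mice in the lower row. The 6 lines of Nfia and of Nfix are above 0 on days 1 and 2, and every line of the 4 genes comes down between day 2 and day 4.

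The fall between day 2 and day 4 was the change all members shared. All 4 were called lower in each genotype, where 6.5% of all genes were called lower in Mll1-deleted and 7.2% in wild-type cultures, and each member fell in 6 of 6 mice. Day 4 did not overlap day 2 in any of the 4, which held for 34.8% of all genes in Mll1-deleted and 27.5% in wild-type cultures. Nfia differed by -0.95 ± 0.19 in Mll1-deleted cultures (adjusted p = 0.00183) and by -0.75 ± 0.19 in wild-type cultures (adjusted p = 0.0109). Nfib differed by -0.79 ± 0.13 in Mll1-deleted (adjusted p = 0.000416) and -0.68 ± 0.13 in wild-type cultures (adjusted p = 0.00101). For Nfic the differences were -0.72 ± 0.19 in Mll1-deleted (adjusted p = 0.0111) and -0.74 ± 0.19 in wild-type cultures (adjusted p = 0.00962). For Nfix they were -0.55 ± 0.16 in Mll1-deleted (adjusted p = 0.0198) and -0.52 ± 0.16 in wild-type cultures (adjusted p = 0.0298). On day 4 mouse 870 had the lowest wild-type value of every member, and mouse 858 the lowest Mll1-deleted value of Nfia, Nfic and Nfix.

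How firmly that fall was called differed between members. The median over the 4 was -0.75 in Mll1-deleted and -0.71 in wild-type cultures, beside 0.04 and 0.00 over all genes. Without mouse 870, or without mouse 862, only Nfib was called in wild-type cultures, and the difference of Nfix without 870 was -0.24 (adjusted p = 0.472). In Mll1-deleted cultures the call of Nfix was lost without any one of the 3 mice (adjusted p = 0.0826 to 0.12), and that of Nfic without mouse 814 (-0.68, adjusted p = 0.081) or in a fit of those 6 arrays alone (adjusted p = 0.0555). In wild-type cultures Nfix was not called after a second quantile normalisation (-0.47, adjusted p = 0.0507) or in a fit of its 6 arrays alone (adjusted p = 0.0993). The Mll1-deleted calls of Nfia and Nfib and the wild-type call of Nfib held under every alternative. Proliferation genes fell in the same interval, 7 of 10 in Mll1-deleted (6.5% of all genes) and 10 of 10 in wild-type cultures (7.2%). Their summed intensity was 2468 to 3333 on day 4 and 5189 to 7114 on day 2 in Mll1-deleted cultures, and 1400 to 2268 on day 4 and 5374 to 6268 on day 2 in wild-type cultures. In whole cultures, fewer cells that express a gene and less RNA per cell cannot be told apart.

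Markers of several cell types also moved between day 2 and day 4. Of 9 ependymal markers, 7 rose in Mll1-deleted and 6 in wild-type cultures, with sums of 1511 to 2803 on day 4 and 725.9 to 1207 on day 2 in Mll1-deleted cultures. In wild-type cultures these sums were 2413 to 3197 on day 4 and 1164 to 1426 on day 2. Of 12 neuroblast markers, 4 fell in wild-type cultures (sums of 8833 to 11410 on day 4 and 15330 to 20790 on day 2), and 1 rose in Mll1-deleted cultures (4681 to 10190 on day 4 and 4743 to 10600 on day 2). In Mll1-deleted cultures 4 of 12 oligodendrocyte lineage markers rose (8023 to 15230 on day 4 and 5967 to 9121 on day 2), against 0 called in wild-type cultures. Of 10 neural stem cell markers, 3 fell in Mll1-deleted cultures (20110 to 22330 on day 4 and 21280 to 24090 on day 2) and 1 rose in wild-type cultures (17980 to 21540 on day 4 and 19260 to 19930 on day 2). Astrocyte markers had 3 of 12 higher in Mll1-deleted and 1 of 12 in wild-type cultures. Over all genes 6.5% were called lower in Mll1-deleted and 7.2% in wild-type cultures. The share called higher is not given here, so counts of risen markers stand without one. In Mll1-deleted and wild-type cultures the median change was 0.86 and 0.83 for ependymal markers, beside 0.04 and -0.001 over all genes. It was 0.77 and 0.08 for oligodendrocyte lineage markers and 0.25 and -0.11 for astrocyte markers. The part of proliferation genes and of these markers in the fall of the NFI genes was not tested.

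Nfia and Nfib were lower in Mll1-deleted than in wild-type cultures on part of the time course. On day 0 Nfia differed by -0.64 ± 0.19 (adjusted p = 0.0326) and Nfib by -0.41 ± 0.13 (adjusted p = 0.0477), with no overlap between the genotypes in either gene. These 2 of 4 members compare with 10.1% of all genes called and 4.71% called lower, and the 3 of 4 members without overlap, Nfic being the other, with 26.2% of all genes. On day 1 Nfia alone was called (-0.63 ± 0.19, adjusted p = 0.0456), where 7.45% of all genes were called, 3.84% lower, and 19.9% had no overlap. Nfib had that day 2596 ± 163 in Mll1-deleted and 2606 ± 254 in wild-type cultures (SD, n = 3 each). On day 2 limma called 0 members, where 8.74% of all genes were called and 28.1% had no overlap, and 1 member, Nfib, had an unadjusted p under 0.05. Its genotypes did not overlap that day (-0.41 ± 0.13, adjusted p = 0.0555). On day 4 Nfib was called (-0.51 ± 0.13, adjusted p = 0.0188), against 6.46% of all genes called, 2.73% lower, and 21.6% without overlap, and Nfia was not (-0.33 ± 0.19, adjusted p = 0.382).

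Averaged over the 4 days of each mouse, Nfia differed by -0.43 ± 0.10 (adjusted p = 0.0325) and Nfib by -0.33 ± 0.07 (adjusted p = 0.0286) between Mll1-deleted and wild-type mice. These are 2 of 4 members, where 7.3% of all genes were called, 3.71% lower, and 26.1% had no overlap. Nfic went the other way, with a mean difference of 0.29 ± 0.13 (adjusted p = 0.239), and on day 0 its values did not overlap between the genotypes (0.45 ± 0.17, adjusted p = 0.112). Nfix differed by 0.10 ± 0.09 over the 4 days (adjusted p = 0.629), and by between -0.11 and 0.20 on single days.

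The genotype calls of Nfia and Nfib depended on single mice and on the scaling. On day 0 both were lost without mouse 489, 814, 818, 862 or 870, with differences from -0.72 to -0.49 for Nfia and from -0.44 to -0.32 for Nfib, and adjusted p up to 0.19 for Nfia and 0.269 for Nfib. The day 1 call of Nfia was lost without any of the same 5 mice (-0.71 to -0.55, adjusted p = 0.0691 to 0.22). The day 4 call of Nfib was lost without mouse 489, 818 or 862 (adjusted p = 0.187, 0.124 and 0.0784). Over the 4 days, the call of Nfia was lost without mouse 814, 818, 862 or 870 (adjusted p = 0.0557 to 0.125) and that of Nfib without mouse 489, 814, 818 or 862 (adjusted p = 0.0654 to 0.115). In a fit of the 6 arrays of a day alone, Nfib was not called on day 0 (adjusted p = 0.0695) or day 4 (adjusted p = 0.15), but was called on day 2 (adjusted p = 0.0322). On day 1 Nfia was not called with arrays shifted to the same median (-0.62, adjusted p = 0.0621) or with its probe sets averaged (-0.62, adjusted p = 0.0593), and over the 4 days not with them averaged (-0.43, adjusted p = 0.0608).

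Nfic, higher in Mll1-deleted cultures by its fitted differences, also depended on a mouse. Without mouse 858, its lowest Mll1-deleted mouse on days 1, 2 and 4, it was called higher on day 0 (0.52, adjusted p = 0.0317), day 2 (0.51, adjusted p = 0.043), day 4 (0.55, adjusted p = 0.0391) and over the 4 days (0.43, adjusted p = 0.0181).

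**Figure D3:**
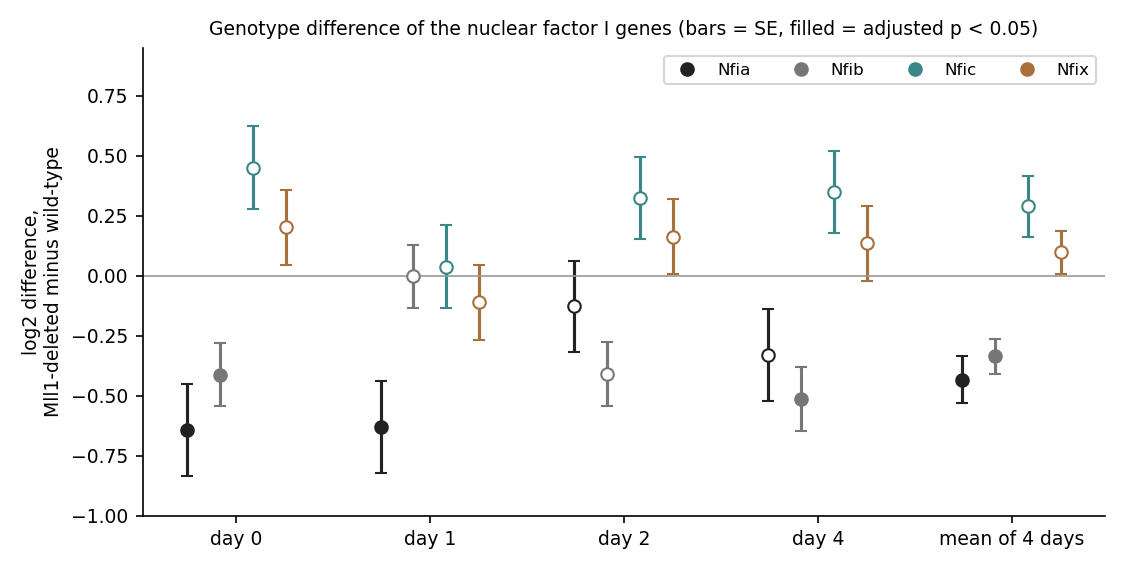
Log2 difference, Mll1-deleted minus wild-type (vertical axis), for each member on each day and over the 4 days (horizontal axis). Points are fitted differences, bars their SE, and filled points have an adjusted p under 0.05. Nfia and Nfib lie at or below 0 throughout, and Nfic and Nfix at or above 0 except Nfix on day 1 (-0.11).

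Whether the course over time differed between the genotypes was tested as a difference of changes. Limma called 0 of 4 members for the change from day 0 to day 1, to day 2 or to day 4, where it called 2.43%, 4.8% and 5.83% of all genes. At an unadjusted p under 0.05 there was 1 member for day 1, Nfib, and 0 for day 2 and day 4. The change of Nfib by day 1 was larger in Mll1-deleted cultures by 0.41 ± 0.18 (adjusted p = 0.31). That of Nfia by day 2 was larger in Mll1-deleted cultures by 0.52 ± 0.27 (adjusted p = 0.342). For Nfia by day 1 the difference of changes was 0.01 ± 0.27.

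The order of the 8 group levels differed between members. Nfia, on probe set 10506031, was highest in wild-type cultures on day 1, at 3622 ± 393 (SD, n = 3), above every other group without overlap. On its other probe set, 10506050, wild-type day 1 (2506 to 3639) overlapped wild-type day 2 (2279 to 3012). On 10506031 Nfia was lowest in Mll1-deleted cultures on day 0, at 1262 ± 224, which overlapped Mll1-deleted cultures on day 4, at 1400 ± 380. Between them, wild-type day 2 (2896 ± 440.1), Mll1-deleted day 2 (2650 ± 414) and Mll1-deleted day 1 (2335 ± 189) overlapped one another, as did wild-type day 0 (1953 ± 171), wild-type day 4 (1734 ± 324) and Mll1-deleted day 4 from neighbour to neighbour.

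Nfib, on probe set 10514054, was highest in wild-type cultures on day 2, at 3178 ± 72, with no overlap with the next group, wild-type day 0 at 2754 ± 69.8. It was lowest in Mll1-deleted cultures on day 4, at 1400 ± 221, below wild-type cultures on day 4 at 2003 ± 369 without overlap. On its other probe set, 10514049, wild-type day 0 was highest (2311 to 2676) and overlapped wild-type day 2 (2339 to 2612). Its day 4 values also overlapped there, at 1133 to 1507 in Mll1-deleted and 1378 to 2077 in wild-type cultures. Nfix fell into an upper set, days 1 and 2 of both genotypes with means from 4505 to 5117, and a lower set, days 0 and 4 with means from 2870 to 3443. No value of the lower set reached the upper one. Nfic had the least separated levels, with means from 307 in wild-type cultures on day 4 to 739 in Mll1-deleted cultures on day 0 and an overlap between all neighbours.

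Nfia and Nfib each had a second probe set, which gave the same direction for the rise of Nfia by day 1 and the falls after day 2. Probe set 10506050 of Nfia was called higher on day 1 than on day 0 (1.02 ± 0.22 in Mll1-deleted, 0.97 ± 0.22 in wild-type cultures) and lower on day 4 than on day 2 (-0.93 ± 0.22 in Mll1-deleted, -0.71 ± 0.22 in wild-type cultures). Probe set 10514049 of Nfib was lower on day 4 than on day 2 by the fitted difference of -0.67 ± 0.14 in Mll1-deleted and -0.52 ± 0.14 in wild-type cultures. Each of these 6 passed at an adjusted p under 0.05 by limma over 22232 probe sets. Before day 4 probe set 10514049 of Nfib went partly another way. In wild-type cultures its day 2 differed from day 0 by -0.02 ± 0.14, beside 0.21 ± 0.13 on 10514054. In Mll1-deleted cultures it rose by day 1 in mice 489 and 814 and fell in mouse 858 (-0.15). On both second probe sets the values of wild-type days 1 and 2 overlapped. Between the genotypes the second probe sets gave like sizes with fewer calls. On day 0 Nfia differed by -0.66 ± 0.21 (adjusted p = 0.0499) and Nfib by -0.43 ± 0.15 (adjusted p = 0.063). The 4-day means of Nfia (-0.42, adjusted p = 0.113) and Nfib (-0.31, adjusted p = 0.0501) missed the threshold there.

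The genes whose log2 values ran closest to each member were found by Pearson's r over the 24 arrays among 16645 genes. The arrays share 6 mice and the same days, so r is given as a description. Nfix ran closest to Zbtb20 (r = 0.968), a zinc finger repressor known in the mouse for astrocyte and hippocampal development, and then to Lamp1 (0.929), Neo1 (0.924), Rnf216 (0.923) and Gatad2b (0.923). Lamp1 is a lysosomal membrane protein, Neo1 the receptor neogenin, Rnf216 a ubiquitin ligase and Gatad2b a subunit of the NuRD complex. Zbtb20 averaged 2715 ± 333 on day 0, 4590 ± 612 on day 1, 4663 ± 858 a day later and 2543 ± 489 at the end in Mll1-deleted cultures. In wild-type cultures it averaged 1883 ± 223, 4764 ± 628, 4124 ± 670 and 2374 ± 853 on those days (SD, n = 3 each). Like Nfix, it was high on days 1 and 2 in both genotypes.

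**Figure D4:**
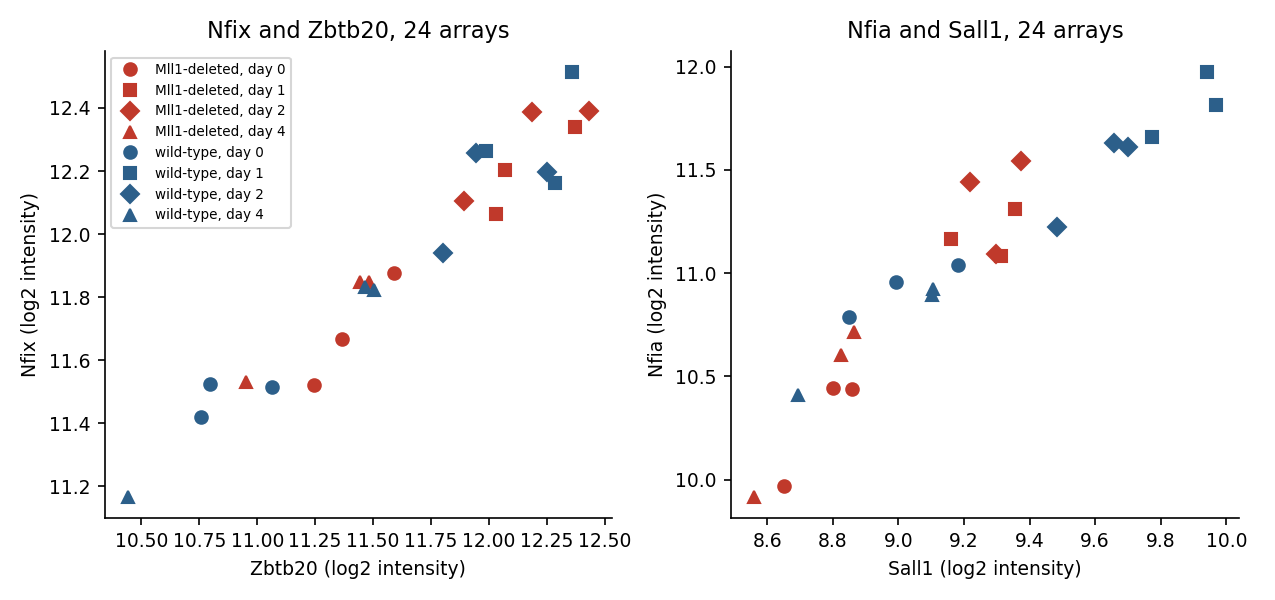
Log2 intensity of Nfix against Zbtb20 (left) and of Nfia against Sall1 (right) on 24 arrays, Mll1-deleted in red and wild-type in blue, with 1 marker shape per day. In both panels the arrays of days 1 and 2 lie to the upper right and those of days 0 and 4 to the lower left, and r is 0.968 for Nfix and 0.948 for Nfia.

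Nfia ran closest to Sall1 (r = 0.948), a zinc finger transcription factor, then Ncoa1 (0.934), a nuclear receptor coactivator, Vps37b (0.92), Igdcc4 (0.92) and Msi1 (0.906), an RNA-binding protein of neural progenitors. Sall1 had its highest mean in wild-type cultures on day 1 (953 ± 67.7), as Nfia did, beside 620.5 ± 43.4 in Mll1-deleted cultures that day (SD, n = 3 each). Nfic ran closest to Ankrd52 (0.948), Tead1 (0.935), the DNA-binding partner of YAP, Aff1 (0.923), Larp1 (0.917) and Arhgap17 (0.917). Tead1 averaged 1015 ± 209 in Mll1-deleted and 1020 ± 225 in wild-type cultures on day 4, the lowest of its means, as for Nfic. Nfib had the weakest likeness, with Srgap2 (0.864), Poc1b (0.846), Prkd3 (0.843), Dach1 (0.831) and Lpin2 (0.822). Among the members themselves, r was highest between Nfia and Nfix (0.799) and lowest between Nfia and Nfic (0.399).

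Of 10 upstream regulators and partners of NFI, 9 were measured by a probe set of their own symbol. By day 1, 3 of 9 had risen in Mll1-deleted and 4 of 9 in wild-type cultures, with 0 called lower. Of all genes, 5.87% were called higher in Mll1-deleted and 11.7% in wild-type cultures. Sox9, which induces Nfia in the mouse and chick spinal cord, rose by 0.84 ± 0.17 in Mll1-deleted (adjusted p = 0.00184) and 0.93 ± 0.17 in wild-type cultures (adjusted p = 0.000254). Zbtb20 rose by 0.76 ± 0.22 in Mll1-deleted (adjusted p = 0.0247) and 1.34 ± 0.22 in wild-type cultures (adjusted p = 8.22e-05). Pou3f2, the neural POU factor Brn2, rose by 0.78 ± 0.17 in Mll1-deleted and 0.72 ± 0.17 in wild-type cultures. Pax6, a progenitor homeobox factor, rose by 0.78 ± 0.12 in wild-type cultures and differed by 0.34 in Mll1-deleted cultures without a call. The median of the 9 was 0.41 in Mll1-deleted and 0.30 in wild-type cultures, beside -0.02 and 0.02 over all genes.

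The course of these partners after day 1 was mixed. Between day 2 and day 4, 3 of 9 fell in each genotype, where 6.5% of all genes were called lower in Mll1-deleted and 7.2% in wild-type cultures. Zbtb20 differed by -0.88 ± 0.22 in Mll1-deleted and -0.86 ± 0.22 in wild-type cultures, and Notch1, the receptor, by -0.78 ± 0.14 in Mll1-deleted and -0.80 ± 0.14 in wild-type cultures. Sox9 did not come back by day 4, when it was still above day 0 by 1.00 ± 0.17 in Mll1-deleted and 0.77 ± 0.17 in wild-type cultures. Sox10, the oligodendrocyte lineage factor, was above day 0 on day 4 by 1.97 ± 0.25 in Mll1-deleted and 0.76 ± 0.25 in wild-type cultures (difference of changes 1.21 ± 0.35, adjusted p = 0.0428). Between the genotypes on day 0, where 4.71% of all genes were called lower, 4 of 9 were lower in Mll1-deleted cultures and 0 higher. These were Emx2 (-1.26 ± 0.21), Pou3f2 (-1.05 ± 0.17), Pax6 (-0.60 ± 0.11) and Sox9 (-0.54 ± 0.17). The median of the 9 was -0.44, beside -0.02 over all genes.

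**Figure D5:**
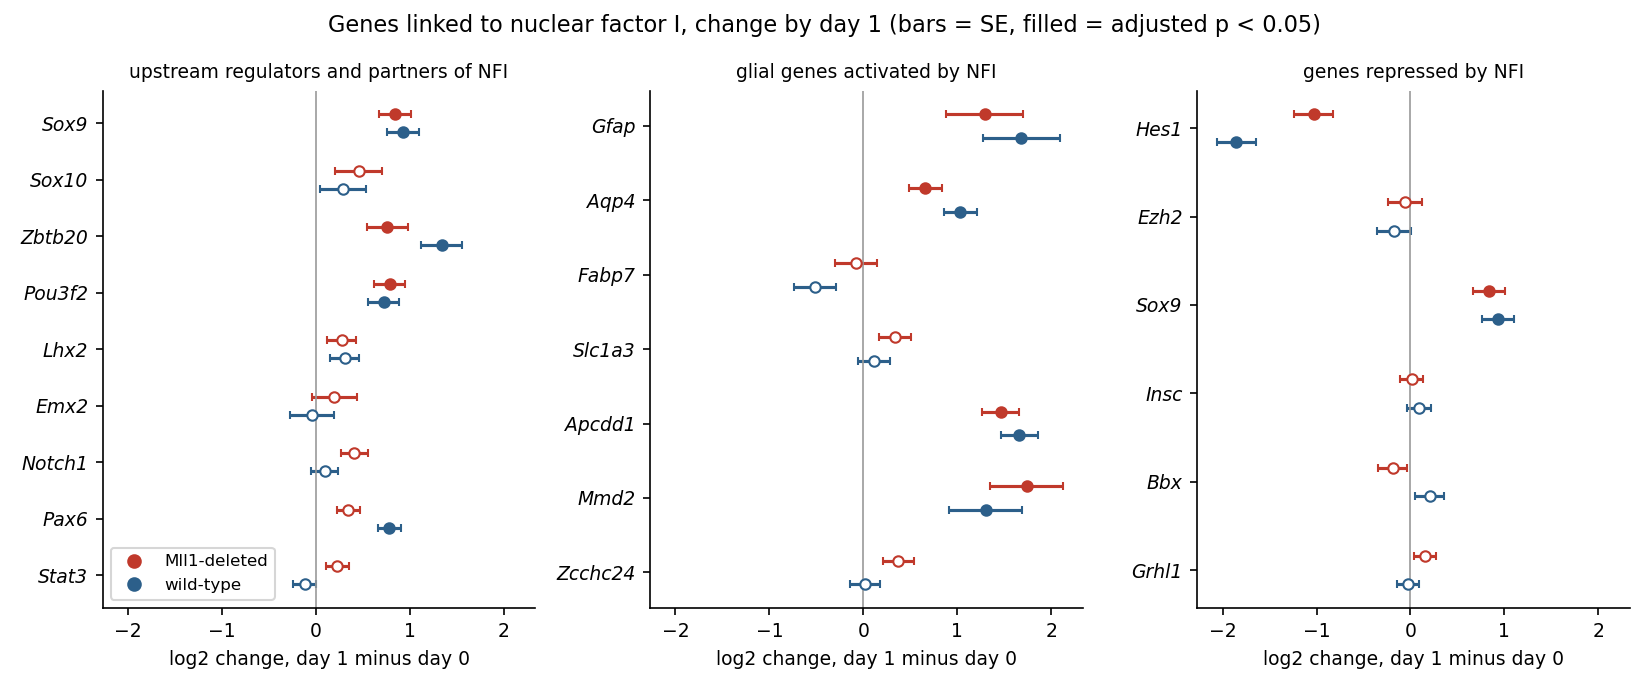
Log2 change from day 0 to day 1 (horizontal axes) of upstream regulators and partners of NFI, glial genes that NFI activates and genes that NFI represses (1 per line), Mll1-deleted in red above wild-type in blue, with SE bars and filled points at an adjusted p under 0.05. Sox9, Zbtb20 and Pou3f2 of the first list and Gfap, Aqp4, Apcdd1 and Mmd2 of the second are higher on day 1 in both genotypes, and Hes1 of the third is lower. Sox9 is on the first and the third list.

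Of 7 glial genes that NFI proteins are known to activate, 4 were higher on day 1 than on day 0 in each genotype and 0 lower. Of all genes, 5.87% were called higher in Mll1-deleted and 11.7% in wild-type cultures. Gfap, the astrocyte intermediate filament, had a mean intensity of 3654 on day 1 and 1595 on day 0 in Mll1-deleted cultures (1.29 ± 0.41, adjusted p = 0.0411). In wild-type cultures it had 7160 on day 1 and 2284 on day 0 (1.68 ± 0.41, adjusted p = 0.0036). Aqp4, the water channel of astrocytes, rose by 0.66 ± 0.18 in Mll1-deleted and 1.03 ± 0.18 in wild-type cultures. Apcdd1, an inhibitor of Wnt signalling, rose by 1.46 ± 0.20 in Mll1-deleted and 1.66 ± 0.20 in wild-type cultures, and Mmd2, a membrane protein of the PAQR family, by 1.74 ± 0.39 in Mll1-deleted and 1.30 ± 0.39 in wild-type cultures.

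After day 2 those glial genes had a mixed course. Between day 2 and day 4, when all 4 members fell, 2 of 7 were called lower in Mll1-deleted cultures, Fabp7 (-0.74 ± 0.23) and Apcdd1 (-0.91 ± 0.20). In wild-type cultures 0 of 7 were called lower. Over all genes 6.5% were called lower in Mll1-deleted and 7.2% in wild-type cultures. The median of the 7 was 0.13 in Mll1-deleted and -0.23 in wild-type cultures. Any link of these genes to the fall of the NFI genes was not tested. Against day 0, day 4 had 4 of 7 higher and 1 lower in Mll1-deleted and 3 higher and 2 lower in wild-type cultures. In this comparison 15.7% of all genes were called lower in Mll1-deleted and 20.4% in wild-type cultures. Fabp7 differed by -1.07 ± 0.23 in Mll1-deleted and -1.40 ± 0.23 in wild-type cultures, and Zcchc24 by -0.78 ± 0.16 in wild-type cultures. In wild-type cultures Fabp7 was already lower on day 2 (-1.21 ± 0.23). On day 4 Gfap was still above day 0 by 2.18 ± 0.41 in Mll1-deleted and 1.23 ± 0.41 in wild-type cultures. Aqp4 was above it by 1.54 ± 0.18 in Mll1-deleted and 1.15 ± 0.18 in wild-type cultures. Between the genotypes on day 0, 3 of 7 were lower in Mll1-deleted cultures, Mmd2 (-1.39 ± 0.36), Fabp7 (-0.75 ± 0.23) and Slc1a3 (-0.72 ± 0.17). Of all genes, 4.71% were called lower in Mll1-deleted cultures that day. Apcdd1 was higher there (1.06 ± 0.19, adjusted p = 0.000502). It stayed higher on day 1 (0.86 ± 0.19) and day 4 (0.67 ± 0.19), whereas Nfia was lower on days 0 and 1. On day 2, when Nfia was not called (-0.13), Apcdd1 averaged 519.9 in Mll1-deleted and 230.6 in wild-type cultures. That day 1 of the 7 was called higher in Mll1-deleted cultures and 0 lower.

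Of 6 genes that NFI proteins are reported to repress, 1 was higher and 1 lower on day 1 in each genotype. Of all genes, 5.87% were called higher in Mll1-deleted and 11.7% in wild-type cultures. Hes1, a Notch-induced repressor that Nfia represses in the mouse forebrain, differed by -1.03 ± 0.21 in Mll1-deleted cultures (adjusted p = 0.00176) and by -1.85 ± 0.21 in wild-type cultures (adjusted p = 8.23e-07). Between the genotypes it was higher in Mll1-deleted cultures on day 1 (0.69 ± 0.19) and day 4 (1.14 ± 0.19, adjusted p = 0.000371). On day 2 it averaged 255.9 in Mll1-deleted and 106.9 in wild-type cultures. Its fall from day 0 was smaller in Mll1-deleted cultures by day 2 (difference of changes 1.38 ± 0.29, adjusted p = 0.00655). Ezh2, the H3 lysine 27 methyltransferase, fell by day 4, with -0.78 ± 0.18 in Mll1-deleted and -0.92 ± 0.18 in wild-type cultures. Sox9, on this list as well as among the partners, was the gene called higher on day 1.

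Of 6 neuronal genes that NFI proteins activate in cerebellar granule cells, 0 were called on day 1 in Mll1-deleted cultures. In wild-type cultures 1 was higher and 2 lower, where 11.7% of all genes were called higher. Wnt7a, a Wnt ligand, was lower in Mll1-deleted than in wild-type cultures on day 0 (-1.54 ± 0.15, adjusted p = 3.14e-07), at 222.2 in Mll1-deleted and 647 in wild-type cultures. Cdh2, N-cadherin, was higher there (0.41 ± 0.12), as was Ephb1, an ephrin receptor (0.58 ± 0.16). The 3 subunits of NF-Y, an unrelated factor that binds CCAAT boxes, had 0 calls between the genotypes on each day and over the 4 days. In wild-type cultures Nfya differed by -0.74 ± 0.14 between day 4 and day 2 (adjusted p = 0.000886), and 0 of 3 were called in that interval in Mll1-deleted cultures.

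Some cell type markers also moved by day 1, when Nfia and Nfix rose, with more called in wild-type than in Mll1-deleted cultures. Of 12 astrocyte markers, 7 were higher on day 1 than on day 0 in each genotype, with 0 lower in Mll1-deleted and 1 in wild-type cultures. Their sums were 39390 to 59490 on day 1 and 19030 to 38420 on day 0 in Mll1-deleted cultures, and 73340 to 78350 on day 1 and 38690 to 41950 on day 0 in wild-type cultures. Of 12 neuroblast markers, 2 were higher and 1 lower in Mll1-deleted cultures (median 0.36), and 8 were higher and 0 lower in wild-type cultures (median 1.43). Neuroblast sums were 4834 to 5707 on day 1 and 4035 to 5516 on day 0 in Mll1-deleted cultures, and 7021 to 10330 on day 1 and 3116 to 3776 on day 0 in wild-type cultures. Of 10 proliferation genes, 0 were called in Mll1-deleted cultures (4961 to 13050 on day 1 and 9654 to 12960 on day 0), and 8 were lower in wild-type cultures (5226 to 8188 on day 1 and 12000 to 14720 on day 0). Of 10 neural stem cell markers, 2 were higher in Mll1-deleted cultures, and 5 were higher and 1 lower in wild-type cultures. Of 9 ependymal markers, 2 were higher in Mll1-deleted and 4 in wild-type cultures. Over all genes 5.87% were called higher in Mll1-deleted and 11.7% in wild-type cultures. The part of these markers in the rise was not tested.

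Between the genotypes, astrocyte markers were lower in Mll1-deleted cultures on the days when Nfia was called lower, and also on day 2, when Nfia was not called (-0.13). On day 0, 6 of 12 were lower and 0 higher, among them Aldh1l1 (-1.78 ± 0.29), Apoe (-1.15 ± 0.27) and Slc1a3, with a median of -0.59. On day 1, 5 of 12 were lower and 0 higher, with a median of -0.61. Of all genes, 4.71% were called lower on day 0 and 3.84% on day 1. Called in either direction were 8.74% on day 2 and 6.46% on day 4. On day 2, 3 were lower and 1 higher, with a median of -0.35 and sums of 54860 to 65120 in Mll1-deleted and 71400 to 75150 in wild-type cultures. The sums of the genotypes overlapped on day 4, at 68340 to 75110 in Mll1-deleted and 57290 to 72100 in wild-type cultures, when 2 markers were higher and 1 lower. On days 0, 1 and 2 they did not. No astrocyte marker had a mean below 25.78 in any group, and Gfap, Aqp4 and Slc1a3 stand on both this list and that of the activated glial genes.

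Markers of other cell types also differed between the genotypes. Of 12 neuroblast markers, 3 were higher and 3 lower in Mll1-deleted cultures on day 0, 1 higher and 7 lower on day 1, 0 higher and 9 lower on day 2, and 0 higher and 2 lower on day 4. Neuroblast sums on day 2 were 4743 to 10600 in Mll1-deleted and 15330 to 20790 in wild-type cultures. Of 12 oligodendrocyte lineage markers, 2 were lower on day 0, 3 were higher on day 1 and on day 2, and 8 were higher on day 4. Their sums on day 4 were 8023 to 15230 in Mll1-deleted and 3978 to 4842 in wild-type cultures. Of 10 neural stem cell markers, 1 was higher and 4 lower on day 0, and 3 were higher and 3 lower on day 2. On days 1 and 4, 1 of them was higher and 2 lower. Of 10 proliferation genes, 2 were higher and 0 lower on day 1 and on day 4 (median 0.71 on day 4). On days 0 and 2, 0 proliferation genes were called. Of 9 ependymal markers, 1 was lower on day 1 and 3 on day 2 (median -0.55), with 0 called on days 0 and 4. The 8 microglia markers summed to 238 to 308 over all arrays, with 2 or 3 of them below 25.78 in each group, and 0 were called between the genotypes on any day. The part of these and of the astrocyte markers in the genotype differences of the NFI genes was not tested.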

How the data were processed

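Per the submitters' processing notes, the authors made the values with Affymetrix Power Tools and RMA on build mm9; versions are not given in the sources used here. The deposited values are linear intensities, from 3.48 to 30298, although RMA works in log2. The linear scale was read off the values, and log2 was taken before every fit. RMA as usually run scales probes across arrays, so the authors' levels are relative, and the levels of different genes were not compared. The sums over marker lists add linear intensities of different probe sets, so the brightest ones weigh most in them. A deposited companion table of the authors gives each probe set a symbol and another value, a cross-hybridisation code it does not explain, which was 1 for all 6 probe sets here. Of 28350 probe sets, 22232 with 1 symbol were used, and each of 21072 genes was represented by its brightest probe set over all arrays.

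The 8 group means over 24 arrays were estimated by limma (version 3.58.1, run in R 4.3.3). Changes over time and their differences between genotypes were tested without a mouse term. Genotypes were compared per day with duplicateCorrelation on the mouse (0.165) and over days on 6 mouse means. In all, 18 comparisons were made. The mouse IDs in the labels pair the arrays. Arrays of 1 mouse deviated together with a median r of 0.31 in Mll1-deleted mice (over 0.1 in 18 of 18 pairs) and 0.216 in wild-type mice (16 of 18, lowest 0.0266). The steps were tested on simulated data.

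Named were every member, Kmt2a, up to 4 genes with the smallest p of each list, and the 5 genes with the highest r to each member. Where a list gene outside this rule is named, it was chosen after its values were seen. The members, the 14 lists, motifs and tests were chosen with earlier results of these data known. Alternatives changed scaling, the offset before log2, the filter on dim genes, probe set choice, the arrays fitted and the mouse term, or left out a mouse. Promoter windows are RefSeq's, of GRCm38.p6, and differ in build from the arrays' notes, so no position was set against a probe. Figures were drawn with matplotlib 3.10.9.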

Additional observations from a re-analysis of the deposited data

How the results depend on the processing

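Over the 4 members and 18 comparisons, 965 of 1036 values under alternatives kept their side of the threshold, and 0 called differences changed direction. This total counts values that were called in neither fit, as only 26 of 72 main values were calls. It also counts 72 values with cross-hybridisation code 1 alone, a setting that leaves these 6 probe sets unchanged. Nfic and Nfix have 1 probe set each, so averaging probe sets leaves their values unchanged too. Of 26 calls, 10 held under every alternative: Nfia on days 1 and 2 against day 0 and on day 4 against day 2 in Mll1-deleted cultures and on day 1 in wild-type cultures, Nfib on day 4 against day 2 and Nfic on day 4 against day 0 in both genotypes, and Nfix on days 1 and 2 in wild-type cultures. With the mouse as a replicate block, or without it between genotypes, 68 of 68 values kept their side, and counts of called members stayed at 2 on day 1 in each genotype and 4 on day 4 against day 2. Shifting arrays to the same median left 1 member called instead of 2 on day 1 in Mll1-deleted and on day 2 in wild-type cultures, and 0 instead of 1 between genotypes on day 1, and it moved the median of all genes on day 2 in wild-type cultures to -0.08, against 0.06. Fitting only the arrays compared left 1 on day 1 in Mll1-deleted cultures, 1 between genotypes on day 0 and 0 on day 4. Quantile normalisation left 1 on day 4 in wild-type cultures. Between genotypes on day 2 it gave 1 instead of 0, as did an offset of 16, leaving out dim genes and fitting only those arrays. The mean of the probe sets gave 0 between genotypes on day 1 and 1 over the 4 days. Leaving out each mouse gave 1 to 2 members on days 1, 2 and 4 against day 0 in Mll1-deleted cultures, and 2 to 2 on day 1 and 1 to 2 on days 2 and 4 in wild-type cultures. For day 4 against day 2 it gave 2 to 4 in Mll1-deleted and 1 to 4 in wild-type cultures. Between genotypes it gave 0 to 3 on day 0, 0 to 1 on days 1 and 2, 0 to 2 on day 4 and 0 to 3 over the 4 days. It gave 0 to 0 for day 2 against day 1 and for the differences of changes. All 6 probe sets were far above the mean lower quartile of 25.78, so dimness does not limit them, while 3 mice per genotype do.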
